A study of Danio rerio with 4 samples.

Results

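Genes of the caspase and BCL2 families and their regulators were followed in exposed whole embryos of zebrafish (*Danio rerio*). The agent, SYP-3343, has only a code name in the labels. A list of 39 symbols was matched to the gene names of the count table with case ignored, and 36 gene identifiers of the 28290 rows are described. The symbol *bak1* was not analysed here. For 6 of the symbols the name table gave the name without its paralog letter. *casp6*, *birc5*, *bax* and *bcl2* are therefore written without a letter, and the copies of *bok* are told apart by identifier. Exposed embryos were wild type, kept in 8 µg/L SYP-3343 between 3 and 24 hours after fertilization, and gave 2 libraries. The controls were wild-type embryos that the labels call untreated, also in 2 libraries, and no strain, clutch or vehicle is given in the labels. The series' title asks about developmental toxicity through reactive oxygen species and mitochondria. Each library came from pooled whole embryos, with 40 embryos named in the design text without saying whether per library or per group. In such bulk RNA, fewer cells of a type and less RNA per cell cannot be told apart.

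Apoptosis removes cells through caspases, proteases made as inactive precursors. In the mitochondrial arm, BH3-only proteins relieve BAX-type proteins of their restraint by anti-apoptotic BCL2 proteins. The outer mitochondrial membrane then becomes permeable, cytochrome c joins APAF1 in the apoptosome, and caspase-9 activates the executioner caspases. In the death receptor arm, receptors such as Fas recruit FADD and caspase-8. IAP proteins restrain caspases and are themselves held off by DIABLO released from mitochondria. Transcript levels say nothing of whether a precursor was cleaved.

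The 4 libraries held 46165614 to 59054470 counts. Values below are CPM, each library's counts brought to a common total with TMM factors, and are given by library or as mean ± SD with n = 2 per group. Log2 fold changes are SYP-3343 minus control ± SE from edgeR's quasi-likelihood test. The words rose and fell are kept for genes with a Benjamini-Hochberg adjusted p under 0.05 over 22647 genes. All 36 members passed the filter on low counts. The minimum was met in both libraries of each group by all but *birc5b*, which met it through the SYP-3343 libraries, and *bmf1*, which met it through the control libraries. Markers of muscle, neural tissue, epidermis, notochord, blood, vessels, hatching gland, eye, pigment cells, germ cells and yolk layer were all detected, as the label of whole embryos implies. Sums of markers, in which the most abundant genes weigh most, differed between the groups for some tissues. Beside the counts of markers that follow, 16.6% of all genes tested were higher and 15.3% lower. The groups did not overlap for 66% of all genes tested. The 5 epidermal markers summed to 17651 and 18925 CPM in the SYP-3343 libraries, against 9097 and 8710 CPM in the control libraries, and 4 of the 5 rose. The rises were of the keratin genes *krt4*, *krt5*, *cyt1* and *krt18a.1*, while *tp63* did not pass (adjusted p = 0.0645). Most of that sum was *krt4* and *cyt1* in every library. The 6 notochord identifiers summed to 2564 and 2661 CPM in SYP-3343 libraries, against 3703 and 3578 CPM in controls, and 3 of the 6 fell. The falls were of the collagen genes *col9a1* and *col2a1*, while *tbxta* and the *shh* copies did not pass. Muscle identifiers summed to 12660 and 15493 CPM in SYP-3343 libraries, against 9540 and 9725 CPM in controls, with 4 of 6 higher and 1 lower. Hatching gland markers summed to 454 and 554 CPM in SYP-3343 libraries, against 219 and 177 CPM in controls, and 2 of 2 rose. Pigment markers summed to 537 and 703 CPM in SYP-3343 libraries, against 359 and 348 CPM in controls, with 3 of 5 higher and 0 lower. These sums stood higher in SYP-3343 for epidermis, muscle, hatching gland and pigment cells and lower for notochord. Sums of germ cell markers (5.01 and 4.98 CPM against 3.79 and 3.20 CPM in controls) and erythroid markers (777 and 896 CPM against 773 and 637 CPM) were higher too. In each of these 2 sets 0 of 3 markers rose or fell. Of 14 tested identifiers for macrophage and neutrophil markers, 3 rose and 2 fell. That is 35.7% called, near the 31.9% of all genes tested. The 16 identifiers of that list summed to 102 and 99.99 CPM in the SYP-3343 libraries, against 110 and 93.7 CPM in controls, and an *mpeg1* copy (ENSDARG00000078569) was at 0 in all 4 libraries. The part of such shifts in the results below was not tested.

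Among the members, 14 of 36 rose (38.9%) and 1 fell (2.78%), while 21 did not pass. Over all genes tested, 31.9% were called, 16.6% higher and 15.3% lower. The share of members that rose thus stood above that of all genes and the share that fell below it, a difference that was not tested. The members' median log2 fold change was 0.19, against -0.01 for all genes. In CPM, both SYP-3343 libraries lay above both controls for 19 members and below both for 7, so that 26 of 36 did not overlap, where 66% of all genes did not (32.2% above and 33.7% below). The risers were spread over opposing roles. They included the initiators *casp8* and *casp9*, the BH3-only genes *bbc3*, *bmf2* and *pmaip1* and the receptor gene *fas*. On the restraining side they included *mcl1a*, *mcl1b* and *bcl2l10* among anti-apoptotic BCL2 genes and *birc2* and *xiap* among IAP genes. *birc5b*, the remaining IAP gene among the 14, passed the filter only through the group where it is high, so the filter itself favoured a difference. Without it 13 of 35 members rose. None of the pore-forming BAX and BOK genes (4 tested) or of the caspase-6 genes (2 tested) rose, and at an unadjusted p under 0.05 the count of rises was also 0 in both sets by edgeR and by DESeq2.

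**Figure D1:**
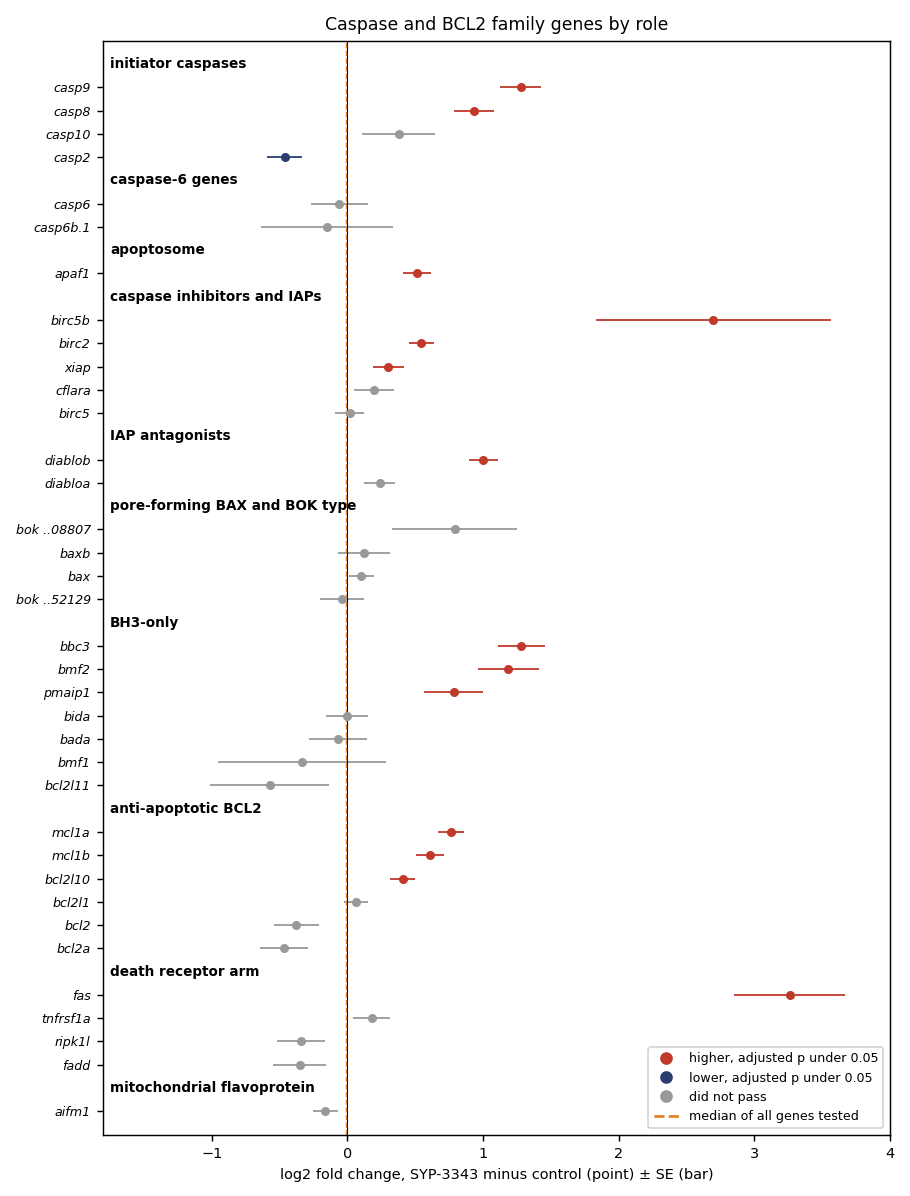
Log2 fold change (SYP-3343 minus control, horizontal axis) ± SE for the 36 members, grouped by role on the vertical axis, with 2 libraries per group and the dashed line at the median of all genes tested. Red points rose, blue points fell and grey points did not pass; *fas* lies farthest right at 3.26, and the pore-forming group holds no red point.

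The death receptor arm held the largest log2 fold change of any member, with *birc5b* next at few reads. *fas*, which encodes the receptor for Fas ligand, had 132 and 92 counts in the SYP-3343 libraries, against 19 and 12 counts in the control libraries. That is 2.92 and 2.14 CPM in SYP-3343 and 0.372 and 0.179 CPM in controls, so every exposed library stood several-fold above every control. The log2 fold change of *fas* was 3.26 ± 0.41 (adjusted p = 3.19e-06), or 9.58-fold, and 0.137% of all genes tested had one as high or higher. Of the molecules that act beside Fas, *casp8*, the initiator caspase recruited to death receptors, also rose. *casp8* read 11.0 and 13.2 CPM in SYP-3343 libraries and 6.87 and 5.86 CPM in controls, with a log2 fold change of 0.94 ± 0.15 (adjusted p = 4.74e-05). The adaptor between them did not pass: *fadd* had 3.65 ± 0.51 CPM in SYP-3343 and 4.63 ± 0.40 CPM in controls, and the 95% interval of its log2 fold change ran from -0.77 to 0.060. The count ratio of *fas* to *fadd* within a library was 0.886 and 0.535 in SYP-3343, against 0.0856 and 0.0364 in controls.

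The other members of this arm gave no call. *casp10*, a close relative of caspase-8, had 2.25 and 2.68 CPM in SYP-3343 libraries and 2.25 and 1.61 CPM in controls (log2 fold change 0.38 ± 0.27, 95% interval -0.18 to 0.94). *tnfrsf1a*, a receptor for tumour necrosis factor, had 14.98 ± 3.01 CPM in SYP-3343 and 13.3 ± 1.04 CPM in controls, and its groups overlapped. *ripk1l*, related to the receptor-interacting kinase of that pathway, had 4.40 ± 0.028 CPM in SYP-3343 and 5.56 ± 0.26 CPM in controls, with both exposed libraries below both controls and an adjusted p of 0.151. *cflara*, which encodes the caspase-8 relative FLIP that blocks caspase-8, had 7.93 ± 0.023 CPM in SYP-3343 and 6.92 ± 0.11 CPM in controls (95% interval of the log2 fold change -0.11 to 0.50).

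Initiator caspases moved in opposite directions. *casp9*, the protease of the apoptosome, had 21.5 and 18.4 CPM in the SYP-3343 libraries and 9.92 and 6.74 CPM in the controls. The controls thus differed from each other by more than the exposed libraries did, and the groups were still well apart. Its log2 fold change was 1.28 ± 0.15 (adjusted p = 1.11e-06), and 2.27% of all genes tested had one as high or higher. *apaf1*, whose product forms the scaffold that caspase-9 binds, rose less: 37.3 and 31.7 CPM in SYP-3343, against 23.1 and 25.2 CPM in controls, with a log2 fold change of 0.51 ± 0.11 (adjusted p = 0.000762). Within a library the count ratio of *casp9* to *apaf1* was 0.575 and 0.580 in SYP-3343 libraries, against 0.430 and 0.268 in controls. *casp2*, an initiator activated on a separate platform, the PIDDosome, fell. It had 10.8 and 10.4 CPM in SYP-3343 libraries and 13.6 and 15.7 CPM in controls, and its log2 fold change was -0.46 ± 0.13 (adjusted p = 0.00770). The call of *casp2* ended without control replicate 2 (adjusted p = 0.0777, with 0.000273 to 0.0777 over its alternatives).

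Among executioner caspases, the caspase-6 genes gave no call. *casp6*, whose protease cleaves nuclear lamins, had 3.46 ± 0.64 CPM in SYP-3343 and 3.61 ± 0.037 CPM in controls (95% interval -0.50 to 0.38). *casp6b.1* had 26 and 17 counts in SYP-3343 libraries and 29 and 35 counts in controls, too few to bound its log2 fold change closer than -1.16 to 0.86. The count ratio of *casp9* to *casp2* within a library was 1.98 and 1.76 in SYP-3343, against 0.731 and 0.430 in controls, and that of *casp8* to *casp10* was 4.89 and 4.94 in SYP-3343, against 3.05 and 3.65 in controls. Such ratios of counts within a library do not depend on the scaling factors. They are not corrected for gene length and are read only between libraries, and with 2 libraries per group an exact two-sided permutation test cannot go below p = 0.333, so they carry no test.

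**Figure D2:**
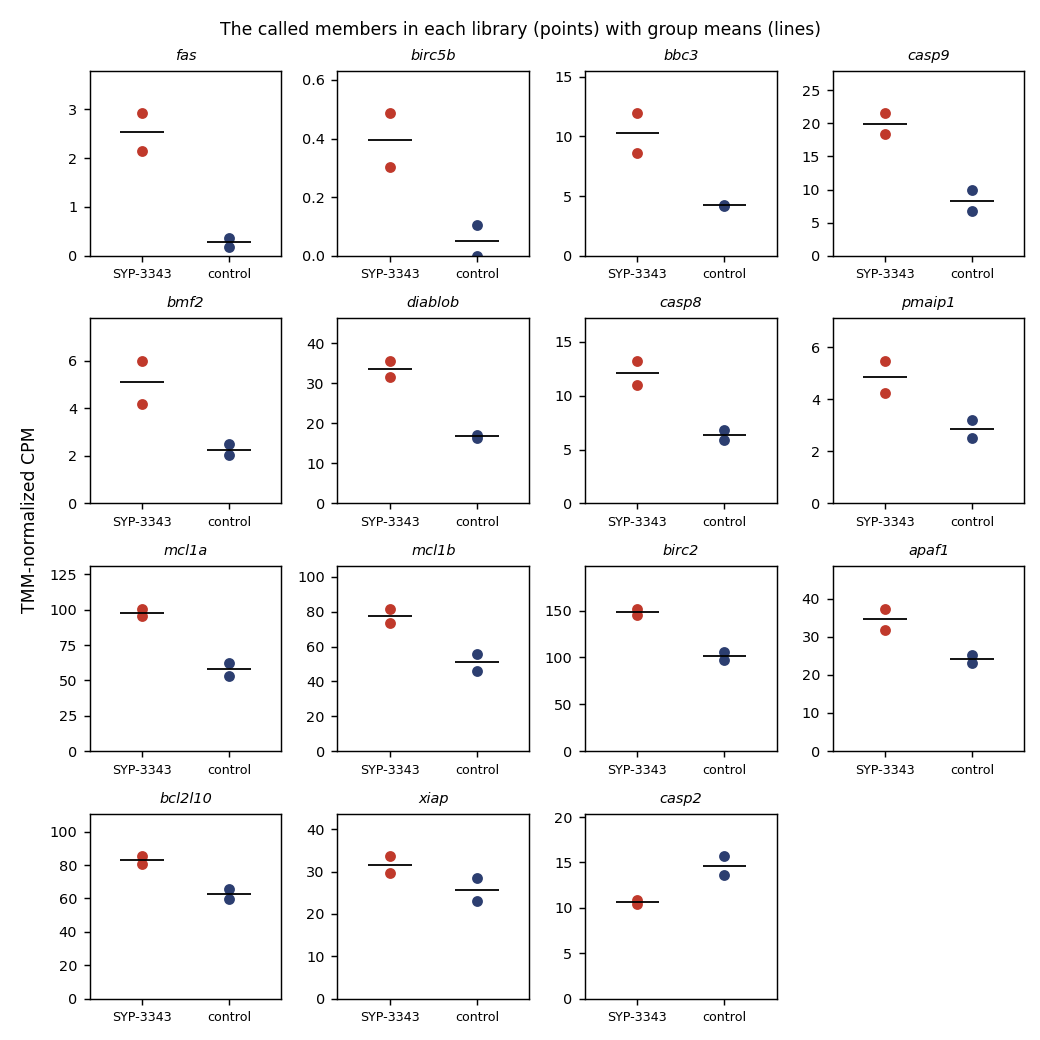
TMM-normalized CPM (vertical axes from 0) of the 15 members that rose or fell, ordered by log2 fold change, with a point for each library, SYP-3343 left and control right, and lines at the group means of 2 libraries. In every panel both SYP-3343 points lie on one side of both control points; *fas* shows 2.92 and 2.14 CPM in SYP-3343 against 0.372 and 0.179 CPM in controls, and *casp2* alone lies lower in SYP-3343.

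Of the IAP genes and their antagonists, without the FLIP gene, 4 of 6 tested members rose and 0 fell, or 3 of 5 without *birc5b*, which passed the filter only through SYP-3343 libraries. Among all genes tested 16.6% were higher and 15.3% lower, and the difference from these few members was not tested. Of the 6, 2 rose and 1 fell with library sizes alone. At an unadjusted p under 0.05, 0 fell by edgeR or by DESeq2. From the wider list described below, a mixed group of 8 genes was tested, of which 1 rose and 1 fell. That group holds further IAP genes but also genes that encode neither IAP proteins nor their partners. With library sizes alone, 1 of those 8 rose and 4 fell. With TMM factors *dap1b*, which is not an IAP gene, rose (0.70 ± 0.099, adjusted p = 1.25e-05). The IAP gene *birc7* fell (-0.48 ± 0.14, adjusted p = 0.0113). *birc2*, which encodes the ubiquitin ligase cIAP1 of tumour necrosis factor signalling, had 145 and 152 CPM in SYP-3343 libraries and 106 and 97.2 CPM in controls, with a log2 fold change of 0.55 ± 0.091 (adjusted p = 8.60e-05). *xiap*, which encodes a direct inhibitor of caspase-9 and of executioner caspases, had 33.6 and 29.6 CPM in SYP-3343 libraries and 28.4 and 23.0 CPM in controls. The nearest libraries of the groups differed little, and the log2 fold change of 0.30 ± 0.11 (adjusted p = 0.0444) was the weakest call among the members. It ended under 8 of its 14 alternatives, among them DESeq2 (adjusted p = 0.101) and leaving out SYP-3343 replicate 1 (0.296) or control replicate 2 (0.373). With library sizes alone its sign turned, and its adjusted p ran from 0.00165 to 0.878 over the alternatives. The survivin gene *birc5*, whose product also works in cell division, had 18.9 ± 0.89 CPM in SYP-3343 and 18.7 ± 0.034 CPM in controls (95% interval of the log2 fold change -0.21 to 0.24). Its paralog *birc5b* was nearly silent, with 22 and 13 counts in SYP-3343 libraries and 0 and 7 counts in controls. A count of 0 allows up to 3 counts there, or 0.065 CPM by library size without the TMM factor. The *birc5b* call (log2 fold change 2.70 ± 0.87, adjusted p = 0.0211) rests on these few reads, and its log2 fold change was 1.90 without control replicate 1, 3.59 with limma-voom and 7.21 without control replicate 2, which leaves a control at 0. The *birc5b* call ended under 4 of its 12 alternatives. These were no filter on low counts, an adjusted p of 0.01, and leaving out SYP-3343 replicate 1 or control replicate 1. DESeq2 and a minimum CPM of 1 in 2 libraries gave no value for *birc5b*.

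DIABLO, also called Smac, leaves mitochondria with cytochrome c and pulls IAP proteins off caspases. Its paralogs differed: *diablob* had 35.6 and 31.6 CPM in SYP-3343 libraries and 16.3 and 17.2 CPM in controls, a log2 fold change of 1.00 ± 0.11 (adjusted p = 2.53e-07), the smallest adjusted p of any member. *diabloa* had 37.9 and 32.2 CPM in SYP-3343 libraries and 33.1 and 26.6 CPM in controls, and its groups overlapped (log2 fold change 0.24 ± 0.11, adjusted p = 0.118). The call of *diabloa* was gained without SYP-3343 replicate 2 (adjusted p = 0.0473) or control replicate 1 (0.00598). Within a library the count ratio of *diablob* to *diabloa* was 0.938 and 0.979 in SYP-3343, against 0.492 and 0.646 in controls. The flavoprotein gene *aifm1*, needed for the respiratory chain and released in some forms of cell death, had 52.4 and 55.4 CPM in SYP-3343 libraries and 60.9 and 59.7 CPM in controls. Its exposed libraries lay below both controls, without a call (log2 fold change -0.16 ± 0.090, adjusted p = 0.184).

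In the BCL2 family, 3 of 11 tested pro-apoptotic members rose and 0 fell, and 3 of 6 anti-apoptotic members rose and 0 fell, where 31.9% of all genes were called and 16.6% were higher. The share of pro-apoptotic members called (27.3%) was thus near that of all genes. At an unadjusted p under 0.05, 0 pro-apoptotic and 2 anti-apoptotic members were lower by edgeR, and 0 of either by DESeq2. With library sizes alone 2 anti-apoptotic members were called higher and 3 lower. The median log2 fold change was 0.10 for the pro-apoptotic and 0.24 for the anti-apoptotic members, and with library sizes alone it was -0.23 and -0.096, where that of all genes was -0.35. The pro-apoptotic calls were all of BH3-only genes. *bbc3*, which encodes PUMA, a BH3-only protein that binds all the main anti-apoptotic BCL2 proteins, had 11.9 and 8.64 CPM in SYP-3343 libraries and 4.19 and 4.27 CPM in controls. The exposed libraries differed from each other while the controls were nearly equal, and the log2 fold change was 1.28 ± 0.17 (adjusted p = 6.56e-06). *bmf2*, a paralog of the BMF gene, had 5.98 and 4.19 CPM in SYP-3343 libraries and 2.48 and 2.04 CPM in controls, with a log2 fold change of 1.19 ± 0.23 (adjusted p = 0.000382). *pmaip1*, which encodes NOXA, a partner of MCL1, had 5.48 and 4.24 CPM in SYP-3343 libraries and 3.23 and 2.50 CPM in controls. The log2 fold change of *pmaip1* was 0.78 ± 0.22 (adjusted p = 0.00792), and its call ended without SYP-3343 replicate 1 (adjusted p = 0.119) or control replicate 2 (0.0710), with 0.00192 to 0.119 over its alternatives.

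The other BH3-only genes did not pass, and their groups overlapped but for *bcl2l11*. *bida*, whose product BID links caspase-8 to mitochondria, had 8.41 ± 1.13 CPM in SYP-3343 and 8.48 ± 1.11 CPM in controls (95% interval of the log2 fold change -0.32 to 0.32). *bada* had 4.02 ± 1.15 CPM in SYP-3343 and 4.28 ± 0.62 CPM in controls (95% interval -0.52 to 0.38). *bcl2l11*, which encodes BIM, had 27 and 21 counts in SYP-3343 libraries and 36 and 60 counts in controls, and *bmf1* had 14 and 9 counts in SYP-3343 and 19 and 20 counts in controls. At such counts the intervals reached from -1.48 to 0.34 for *bcl2l11* and from -1.62 to 0.95 for *bmf1*. The paralogs *bmf2* and *bmf1* thus stood 19.4 and 20 to 1 in counts within the SYP-3343 libraries, against 6.68 and 6.85 to 1 within the controls, a ratio that rests on the few *bmf1* reads.

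Pore-forming genes gave no call under any of the 4 scalings. *bax*, the effector of membrane permeabilization, had 46.6 and 50.2 CPM in SYP-3343 libraries and 47.2 and 42.9 CPM in controls, with overlapping groups (log2 fold change 0.10 ± 0.095, 95% interval -0.094 to 0.30). *baxb* had 4.27 ± 0.18 CPM in SYP-3343 and 3.93 ± 0.023 CPM in controls (95% interval -0.28 to 0.52). Among the *bok* copies, ENSDARG00000052129 had 6.38 ± 0.56 CPM in SYP-3343 and 6.55 ± 0.24 CPM in controls (95% interval -0.37 to 0.29). The copy ENSDARG00000008807 had 51 and 24 counts in SYP-3343 libraries and 22 and 36 counts in controls, or 1.13 and 0.559 CPM against 0.430 and 0.536 CPM. SYP-3343 replicate 2 was barely above the higher control, and the interval of the log2 fold change ran from -0.17 to 1.75. The upper bounds of *bax*, *baxb* and *bok* copy ENSDARG00000052129 all lay under the log2 fold change of *bbc3* given above.

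Anti-apoptotic genes split by paralog group. The MCL1 genes, whose short-lived product restrains BAK and BIM, both rose. *mcl1a* had 95.2 and 100.7 CPM in SYP-3343 libraries and 62.2 and 53.2 CPM in controls (log2 fold change 0.76 ± 0.096, adjusted p = 2.87e-06). *mcl1b* had 81.8 and 73.3 CPM in SYP-3343 libraries and 55.7 and 46.1 CPM in controls (log2 fold change 0.61 ± 0.10, adjusted p = 8.63e-05). In both genes the lower exposed library stood above the higher control by more than the replicates of either group differed. *bcl2l10* rose less, with 85.2 and 80.8 CPM in SYP-3343 libraries and 65.5 and 59.7 CPM in controls (log2 fold change 0.41 ± 0.092, adjusted p = 0.00163). *bcl2l1*, which encodes BCL-XL, had 52.6 and 53.0 CPM in SYP-3343 libraries and 50.8 and 50.3 CPM in controls, a log2 fold change of 0.064 ± 0.090 whose 95% interval ran from -0.12 to 0.25. Both genes named for BCL2 itself stood lower without a call: *bcl2a* had 4.51 and 6.29 CPM in SYP-3343 libraries and 6.65 and 8.13 CPM in controls (log2 fold change -0.47 ± 0.18, adjusted p = 0.0518), and *bcl2* had 5.72 and 5.03 CPM in SYP-3343 libraries and 6.94 and 7.01 CPM in controls (-0.38 ± 0.16, adjusted p = 0.0856). *bcl2a* passed under 6 of its 14 alternatives, upper-quartile scaling (adjusted p = 0.0246) and leaving out SYP-3343 replicate 2 (0.0105) or control replicate 1 (0.0129) among them, with 0.00220 to 0.467 over all of them.

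Set against each other inside a library, the sides of the family gave the following balance. BH3-only genes had 0.118 and 0.0896 counts per anti-apoptotic count in SYP-3343 libraries, against 0.101 and 0.0960 in controls, so the groups overlapped. Pore-forming genes had 0.179 and 0.193 counts per anti-apoptotic count in SYP-3343 libraries, against 0.234 and 0.241 in controls, lower in both exposed libraries. The pore-forming sum itself was not lower, with 58.1 and 61.6 CPM in SYP-3343 libraries and 57.9 and 54.1 CPM in controls. Most of the pore-forming sum was *bax* in every library. The anti-apoptotic sum was higher, with 325 and 319 CPM in SYP-3343 libraries and 248 and 224 CPM in controls. Most of the anti-apoptotic sum came from *mcl1a*, *mcl1b* and *bcl2l10* in every library. The BH3-only sum was higher too, with 38.3 and 28.6 CPM in SYP-3343 libraries and 24.96 and 21.5 CPM in controls. All pro-apoptotic members together had 0.297 and 0.283 counts per anti-apoptotic count in SYP-3343, against 0.335 and 0.337 in controls. Within the anti-apoptotic genes, the *mcl1* pair had 1.19 and 1.20 counts for each count of the other 4 in SYP-3343 libraries, against 0.908 and 0.793 in controls. Single pairs need not follow these sums: *bbc3* had 0.227 and 0.163 counts per *bcl2l1* count in SYP-3343 libraries, against 0.0824 and 0.0849 in controls.

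**Figure D3:**
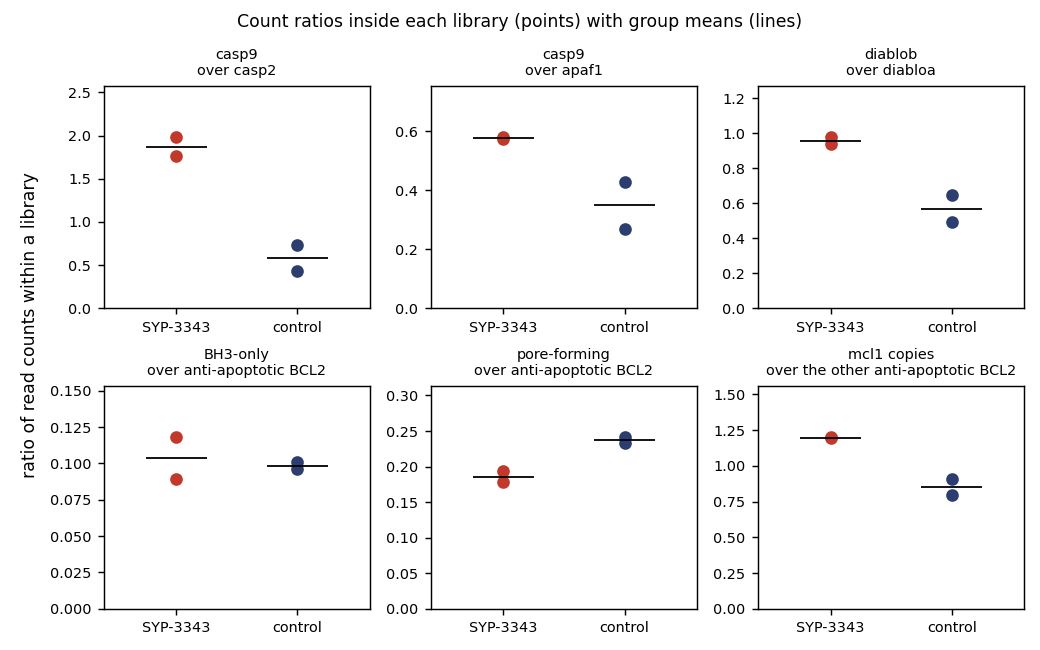
Ratios of read counts within each library (vertical axes from 0, no unit) for 6 sets of members, with a point for each library, SYP-3343 left and control right, and lines at the means of 2 libraries. The ratio of *casp9* to *casp2* is 1.98 and 1.76 in SYP-3343 and 0.731 and 0.430 in controls, whereas BH3-only over anti-apoptotic genes overlaps between the groups.

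The size of several rises differed between the exposed libraries. SYP-3343 replicate 1 exceeded replicate 2 for 26 of the 36 members (72.2%), where 50.3% of all genes tested did so, and in the controls replicate 1 was higher for 21 of 36 members (58.3%, against 52.4% of all genes). Among the called genes the gap between exposed libraries was widest, on the log2 scale, for *birc5b* (0.67), *bmf2* (0.51), *bbc3* (0.46) and *fas* (0.44). Between the controls the gap was 1.02 for *fas*, 0.28 for *bmf2* and -0.029 for *bbc3*, and *birc5b* had a control at 0 counts. It was 0.56 between the controls for *casp9*, against 0.23 between its exposed libraries. *casp8* (-0.26), *mcl1a* (-0.081) and *birc2* (-0.068) were higher in SYP-3343 replicate 2. The median absolute log2 difference between replicates was 0.24 in SYP-3343 and 0.19 in controls for the members, against 0.15 and 0.16 for all genes.

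Scaling moved the members' log2 fold changes together, and calls near the threshold changed. With library sizes alone, without TMM factors, the median over all genes moved to -0.35, and 9 members were called higher and 8 lower. Higher genes made up 13% of all calls then, against 40.5% with upper-quartile factors and 52.2% with TMM. Upper-quartile factors added *bcl2a* and *bcl2* (adjusted p = 0.0403) to the members called lower. Under RLE, upper-quartile and library-size scaling *fas*, *bbc3*, *casp9*, *bmf2*, *diablob*, *casp8*, *mcl1a* and *mcl1b* stayed called higher, and *casp2* called lower. *birc5b* stayed called higher too, but it rests on few reads and passed the filter only through the SYP-3343 libraries where it is high. With library sizes alone the calls of *apaf1* (adjusted p = 0.241), *birc2* (0.0575), *pmaip1* (0.114), *bcl2l10* (0.545) and *xiap* (0.878) ended, and *bcl2l1*, *birc5*, *bcl2a*, *bcl2*, *fadd*, *ripk1l* and *aifm1* were called lower. Among uncalled members the signs of *bcl2l1* and *birc5* turned with upper-quartile scaling as well.

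**Figure D4:**
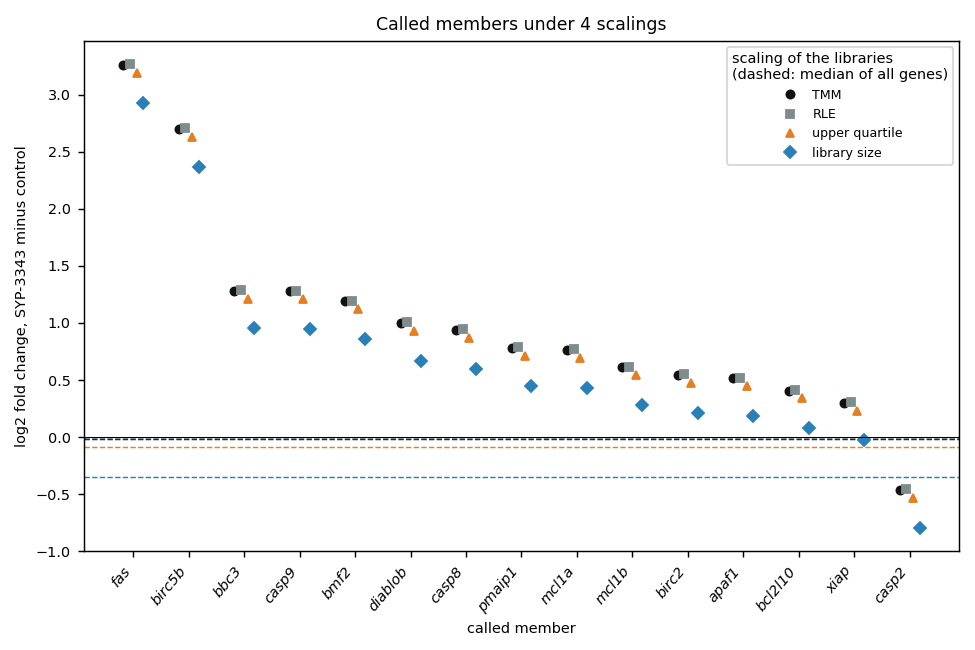
Log2 fold change (SYP-3343 minus control, vertical axis) of the 15 called members (horizontal axis) under TMM, RLE, upper-quartile and library-size scaling of the 4 libraries, with dashed lines at the median of all genes under each. The points of a gene shift down together with the dashed line, which lies at -0.35 for library size, and *xiap* is the member whose point crosses 0.

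Other genes of the pathway were taken from a list of 122 symbols, chosen with earlier results of these data known. Of its identifiers beyond the members 126 are counted, of which 121 were tested. In that list 25 rose (20.7%), 12 fell (9.92%) and 84 did not pass, so that 30.6% were called, close to the share over all genes. That share was 31.9%, with 16.6% higher and 15.3% lower. Without the identifiers named *htra2*, described below, 19 of 109 rose (17.4%) and 12 fell (11%), with a median log2 fold change of 0.013. For the whole list the median log2 fold change was 0.041. Upper-quartile scaling (-0.028) and library sizes alone (-0.29) turned its sign, the second with 16 higher and 52 lower. With library sizes alone 1405 of all 22647 genes were higher and 9384 lower, and the median over all genes was -0.35. The largest group with calls was that of mitochondrial intermembrane factors, where 9 of 23 rose and 1 fell (7 and 5 with library sizes alone), but 12 of the 23 carried the name *htra2*, a protease released beside DIABLO. These identifiers are copies of a single name among which reads may be split, and without them 3 of 11 rose and 1 fell, with a median log2 fold change of 0.15 in place of 0.51. Those 3 were *vdac1* (0.49 ± 0.10, adjusted p = 0.000636), *vdac2* and *vdac3* (0.32 ± 0.10, adjusted p = 0.0241). They encode channels of the outer mitochondrial membrane, not proteins of the space inside it. The copy ENSDARG00000069909 of *htra2* had 47.5 and 42.1 CPM in SYP-3343 libraries and 19.4 and 17.98 CPM in controls (log2 fold change 1.26 ± 0.10, adjusted p = 5.41e-09), and the scarcer copy ENSDARG00000092202 also rose (2.16 ± 0.27, adjusted p = 2.40e-06). The channel gene *vdac2* had 1121 and 1193 CPM in SYP-3343 libraries and 645 and 626 CPM in controls (0.86 ± 0.11, adjusted p = 3.44e-06). Among upstream regulators 6 of 17 rose and 1 fell, but 3 rose and 6 fell with library sizes alone. *ddit3*, which encodes the stress factor CHOP, had 52.2 and 45.3 CPM in SYP-3343 libraries and 24.9 and 22.05 CPM in controls (1.06 ± 0.10, adjusted p = 8.94e-08).

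Further out on the death receptor side, 1 of 11 tested ligands and receptors rose and 2 fell, and of 10 adaptors and kinases 1 rose and 0 fell (1 lower at an unadjusted p under 0.05 by edgeR, 0 by DESeq2; 5 fell with library sizes alone). The receptor gene that rose was *tnfrsf1b*, with 2.96 and 3.35 CPM in SYP-3343 libraries and 1.37 and 1.01 CPM in controls (1.43 ± 0.27, adjusted p = 0.000395). The adaptor that rose was *tab1*, which encodes a subunit of the kinase complex below tumour necrosis factor receptors. *tab1* had 56.2 and 61.0 CPM in SYP-3343 libraries and 20.8 and 17.7 CPM in controls (1.61 ± 0.10, adjusted p = 1.29e-10). The death ligand gene *tnfsf10*, known as TRAIL, fell to 12.1 and 12.5 CPM in SYP-3343 libraries, against 24.3 and 19.99 CPM in controls (-0.84 ± 0.12, adjusted p = 1.66e-05), as did *ngfr* copy ENSDARG00000088708 (-0.46 ± 0.11). The ligand of Fas, *faslg*, was at 0 counts in all 4 libraries. Of 5 tested further caspases 0 rose and 0 fell, also at an unadjusted p under 0.05 and by DESeq2, but 2 fell with library sizes alone. For comparison, TMM scaling gave rises for 16.6% of the 22647 genes tested and falls for 15.3%. Scaling by library size gave 1405 rises and 9384 falls among the same genes. Whether these small groups differ from all genes was not tested under either scaling.

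Among 18 further BCL2 relatives and partners 3 rose and 2 fell, but 2 rose and 11 fell with library sizes alone. Beside this and the counts below, 16.6% of all genes tested were higher and 15.3% lower. Library sizes alone called 1405 of all 22647 genes higher and 9384 lower, and the difference of these groups from all genes under that scaling was not tested. *tmbim1b*, of the family of BAX inhibitor-1, rose, with 42.7 and 45.9 CPM in SYP-3343 libraries and 15.9 and 14.6 CPM in controls (1.54 ± 0.10, adjusted p = 2.09e-10). *bik*, counted here and not among the pro-apoptotic members, also rose (1.08 ± 0.27, adjusted p = 0.00372), as did *bnip2* (0.37 ± 0.12, adjusted p = 0.0172). *bcl2l16* (-0.31 ± 0.10, adjusted p = 0.0296) and *bnip3* (-0.55 ± 0.19, adjusted p = 0.0275) fell. Of 16 substrates of the execution phase 2 rose and 2 fell, but 0 rose and 9 fell with library sizes alone. The falls were those of a gelsolin copy, *gsn* ENSDARG00000011459 (-0.34 ± 0.093), and of the actin-associated *gas2* copy ENSDARG00000001259 (-1.05 ± 0.30), and both calls ended without SYP-3343 replicate 2. The *gsn* copies split, as the more abundant ENSDARG00000045262 rose (0.29 ± 0.091, adjusted p = 0.0164). Genes for the clearance of dying cells gave 2 of 13 higher and 3 lower, but 1 higher and 7 lower with library sizes alone. With TMM factors the 2 higher ones were *xkr8.2* (1.08 ± 0.19, adjusted p = 0.000133) and *dock1* (0.37 ± 0.098, adjusted p = 0.00602). *mfge8a*, whose product bridges dying cells and phagocytes, fell to 11.7 and 11.4 CPM in SYP-3343 libraries, against 26.0 and 21.4 CPM in controls (-1.03 ± 0.12, adjusted p = 1.26e-06), and the engulfment gene *elmo2* fell too (-0.43 ± 0.11, adjusted p = 0.00509).

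**Figure D5:**
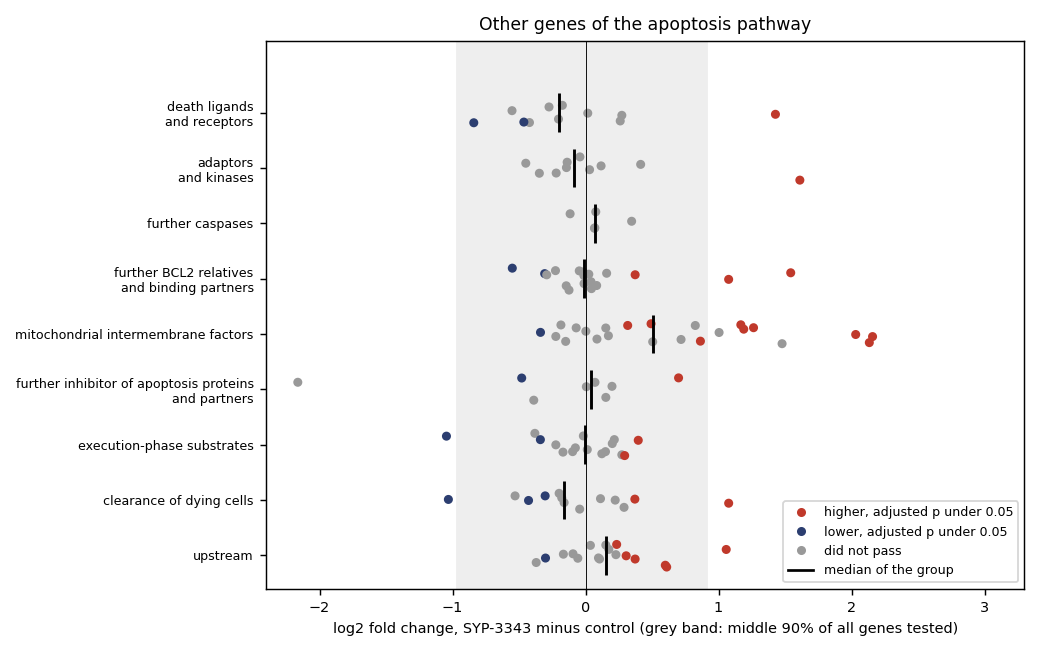
Log2 fold change (SYP-3343 minus control, horizontal axis) of the 121 tested identifiers of the wider apoptosis list, by group on the vertical axis, with a point for each identifier (red rose, blue fell, grey did not pass), black lines at group medians and a grey band over the middle 90% of all genes tested. The mitochondrial intermembrane group has its median at 0.51, or at 0.15 without the *htra2* copies among its points, and the other medians lie between -0.20 and 0.15. With library sizes alone those other medians are all below 0, as is that of all genes (-0.35).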

How the data were processed

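RNA of whole embryos was sequenced in 4 poly-A libraries, and the deposited table holds whole-number counts of reads per gene without normalization. The submitters' processing notes name, without roles, the aligners TopHat2 and HISAT2, the counters HTSeq and featureCounts 1.6.2, DESeq2 1.14.1, and build GRCz11. No source used here gives the strand setting or annotation, so reads of overlapping genes, antisense partners and near-identical copies cannot be told apart. Libraries are labelled as biological replicates with no clutch or tank named, and p-values thus cover only the spread among these libraries, which may be technical.

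Counts were filtered with edgeR's filterByExpr, scaled by TMM (factors 0.923 and 0.860 for SYP-3343, 1.11 and 1.14 for controls) and fitted with a group term. The quasi-likelihood F test was two-sided, with Benjamini-Hochberg adjustment over all genes. Intervals are 95% intervals from the same fit. Each reported member is given, with full statistics for called ones. From the wider list the 6 rises and 6 falls with the smallest adjusted p could be named among those reported. *faslg*, *vdac1*, *vdac3*, *xkr8.2*, *dock1*, *dap1b*, *birc7*, *bik*, *bnip2*, *bcl2l16*, *bnip3*, *tnfrsf1b* and *gsn* copy ENSDARG00000045262 were named after their values were seen. Some listed genes are not reported here and enter no count of members or of the wider list. The members and lists were chosen with earlier results of these data known. No sequence is shown. Code was tested on simulated counts with known changes. Alternatives are in the closing section. Analyses used R 4.3.3, edgeR 4.0.16, limma 3.58.1, DESeq2 1.42.0 and matplotlib 3.10.9.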

Additional observations from a re-analysis of the deposited data

How the results depend on the processing

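Alternatives were RLE, upper-quartile and library-size scaling, no filter on low counts, a minimum CPM of 1 in 2 libraries, DESeq2, limma-voom, a block for the replicate number, leaving out each library, an adjusted p of 0.01 and, chosen after seeing the data, the legacy quasi-likelihood fit. *casp8*, *casp9*, *diablob*, *bbc3*, *bmf2*, *mcl1a*, *mcl1b* and *fas* kept direction and call under all 14. Over the 15 called members 189 of 208 values kept both, 18 lost the call and 1 turned sign. *birc5b*, which passed the filter only through the SYP-3343 libraries, is among those 15. DESeq2 gave a value for 34 members and the CPM minimum for 31. With library sizes alone 1405 genes were higher and 9384 lower, 9 members were higher and 8 lower, and 16 genes of the wider list were higher and 52 lower. Upper-quartile scaling gave 3 lower members, and the CPM minimum 2. At an adjusted p of 0.01 there were 2039 lower genes and 6 lower genes of the wider list. Leaving out each library gave 0 to 2 lower members, 0 without control replicate 2. The numbers did not pair the libraries (r = -0.037 between the deviations of same-numbered libraries, across 22647 genes), and with the replicate block 7248 genes were called, 14 members higher and 2 lower (*casp2* and *bcl2a*). Where a group kept 1 library, its spread was taken from the other group.

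Signs turned as follows, as log2 fold changes, in members without a call but for *xiap*. With library sizes alone *xiap* was at -0.027, *cflara* at -0.14, *birc5* at -0.32, *diabloa* at -0.091, *bax* at -0.23, *baxb* at -0.21, *bcl2l1* at -0.27 and *tnfrsf1a* at -0.15. With upper-quartile factors *birc5* was at -0.054 and *bcl2l1* at -0.0058. *bida* was at 0.0053 with RLE factors and at 0.0039 with limma-voom. Leaving out each library gave -0.26 to 0.11 for *casp6*, -0.45 to 0.080 for *casp6b.1*, -0.031 to 0.059 for *birc5*, -0.14 to 0.050 for *bok* copy ENSDARG00000052129, -0.40 to 0.18 for *bada*, -0.15 to 0.13 for *bida* and -0.042 to 0.36 for *tnfrsf1a*. The causes were not tested. Counts of at most 60 in every library limit *casp6b.1*, *bmf1*, *bcl2l11*, *birc5b* and *bok* copy ENSDARG00000008807.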
